A study of Komagataella pastoris with 6 samples.

Results

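Prototrophic X33 cells grown in YPA were compared with auxotrophic GS115 cells grown in the same medium, over every gene of one table of read counts. The methylotrophic yeast, which the sample labels call Komagataella pastoris and the study Komagataella phaffii, was grown in YPA, a medium of yeast extract, peptone and acetate, and was harvested at 24 h. X33-YPA (genotype HIS4, a histidine prototroph) was represented by libraries C and D, and GS115-YPA (genotype his4, a histidine auxotroph) by libraries A and B. GS115 in YPA to which 650 µM histidine had been added, GS115-YPAH5x (libraries E and F), served as a second reference. The labels call both strains wild type and list no other treatment, and the study describes the strains as differing at HIS4. Each strain was started from a colony that had been grown overnight in rich glucose medium. Libraries were made in duplicate, and nothing in the labels says that the duplicates of a group came from separate cultures, so that p-values measure the spread between these libraries, which may be technical. The table held 5427 rows, of which 5426 had counts high enough to be tested, and all 5426 enter the totals given here. Of the 5427 rows, 2193 were placed in 48 functional classes that were built from the annotated protein names and KEGG orthology descriptions. The other 3234 rows are in no class and are covered by the totals and by a few named genes.

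HIS4 encodes the multifunctional enzyme that carries out several steps of histidine synthesis, including the last. A strain without it must take histidine from the medium through amino acid permeases of the plasma membrane. In budding yeast, shortage of any one amino acid activates the kinase Gcn2, which phosphorylates the alpha subunit of translation initiation factor eIF2. This lowers translation in general and raises synthesis of the transcription factor Gcn4, which acts on the biosynthetic genes of many amino acids at once. Ribosomal protein genes and the genes of DNA replication are by contrast transcribed in growing and dividing cells. Acetate as the carbon source is activated to acetyl-CoA, oxidised in mitochondria and, through the glyoxylate cycle and gluconeogenesis, turned into sugars.

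The libraries held 32194047 (C) and 41788229 (D) counts in X33-YPA, against 36352356 (A) and 43237903 (B) in GS115-YPA. Values are given as CPM, read counts scaled to a library of 1000000 reads with TMM factors, always in the order C and D for X33-YPA and A and B for GS115-YPA. Fold changes are log2 ratios of X33-YPA over GS115-YPA with their standard error, and a gene rose or fell where the quasi-likelihood test of edgeR gave a Benjamini-Hochberg adjusted p under 0.05 over all 5426 genes. Counts are relative to the total of a library, so that less of one RNA per cell cannot be told apart from more of the others. The SD of the log2 difference between duplicates was 0.282 in X33-YPA and 0.373 in GS115-YPA. In its growth curves the study reports that GS115 grew less well than X33 in YPA, and that added histidine restored the growth of GS115. Culture density and growth phase at harvest are not given in the files, and they cannot be told apart from the genotype in any comparison below.

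The strains differed widely. Of the 5426 genes, 1812 (33.4%) rose in X33-YPA and 1778 (32.8%) fell, so that 66.2% passed the test, and these shares are the background against which the class counts below are read. The change was under 0.5 log2 units in 2102 genes, between 0.5 and 1 in 1542 and between 1 and 2 in 1413. Past 2 log2 units, 138 genes (2.54%) rose and 231 (4.26%) fell, 6.8% in all. The genes that rose held 45.6 and 44.9% of all counts in X33-YPA, against 16.03 and 16.8% in GS115-YPA. Those that fell held 33.9 and 33.6% in X33-YPA, against 63.9 and 63.1% in GS115-YPA. The CPM ranges of the duplicates did not overlap in 2233 genes that were higher in X33-YPA (41.2%) and in 2191 that were lower (40.4%).

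HIS4 (BQ9382_C1-4895) was counted at 187 and 219.7 CPM in X33-YPA, against 365 and 501 CPM in GS115-YPA (log2 fold change -1.09 ± 0.18, adjusted p = 0.00048). Its transcript was therefore present in both strains, and lower in the prototroph. The level does not check the labels, since a gene with a defective allele can still be transcribed.

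By class, ribosomal proteins, the 2 rotary ATPases, histones, sterol enzymes and the cytochrome chain lay at the upper end, and the pathways to arginine, the branched-chain amino acids, histidine and lysine, adhesins and the proteasome at the lower end. A majority of the tested members rose in 13 of the 48 classes, and a majority fell in another 13. The median log2 fold change over all 5426 genes was 0.01. No class was tested as a set, and the counts and medians below are descriptions.

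**Figure D1:**
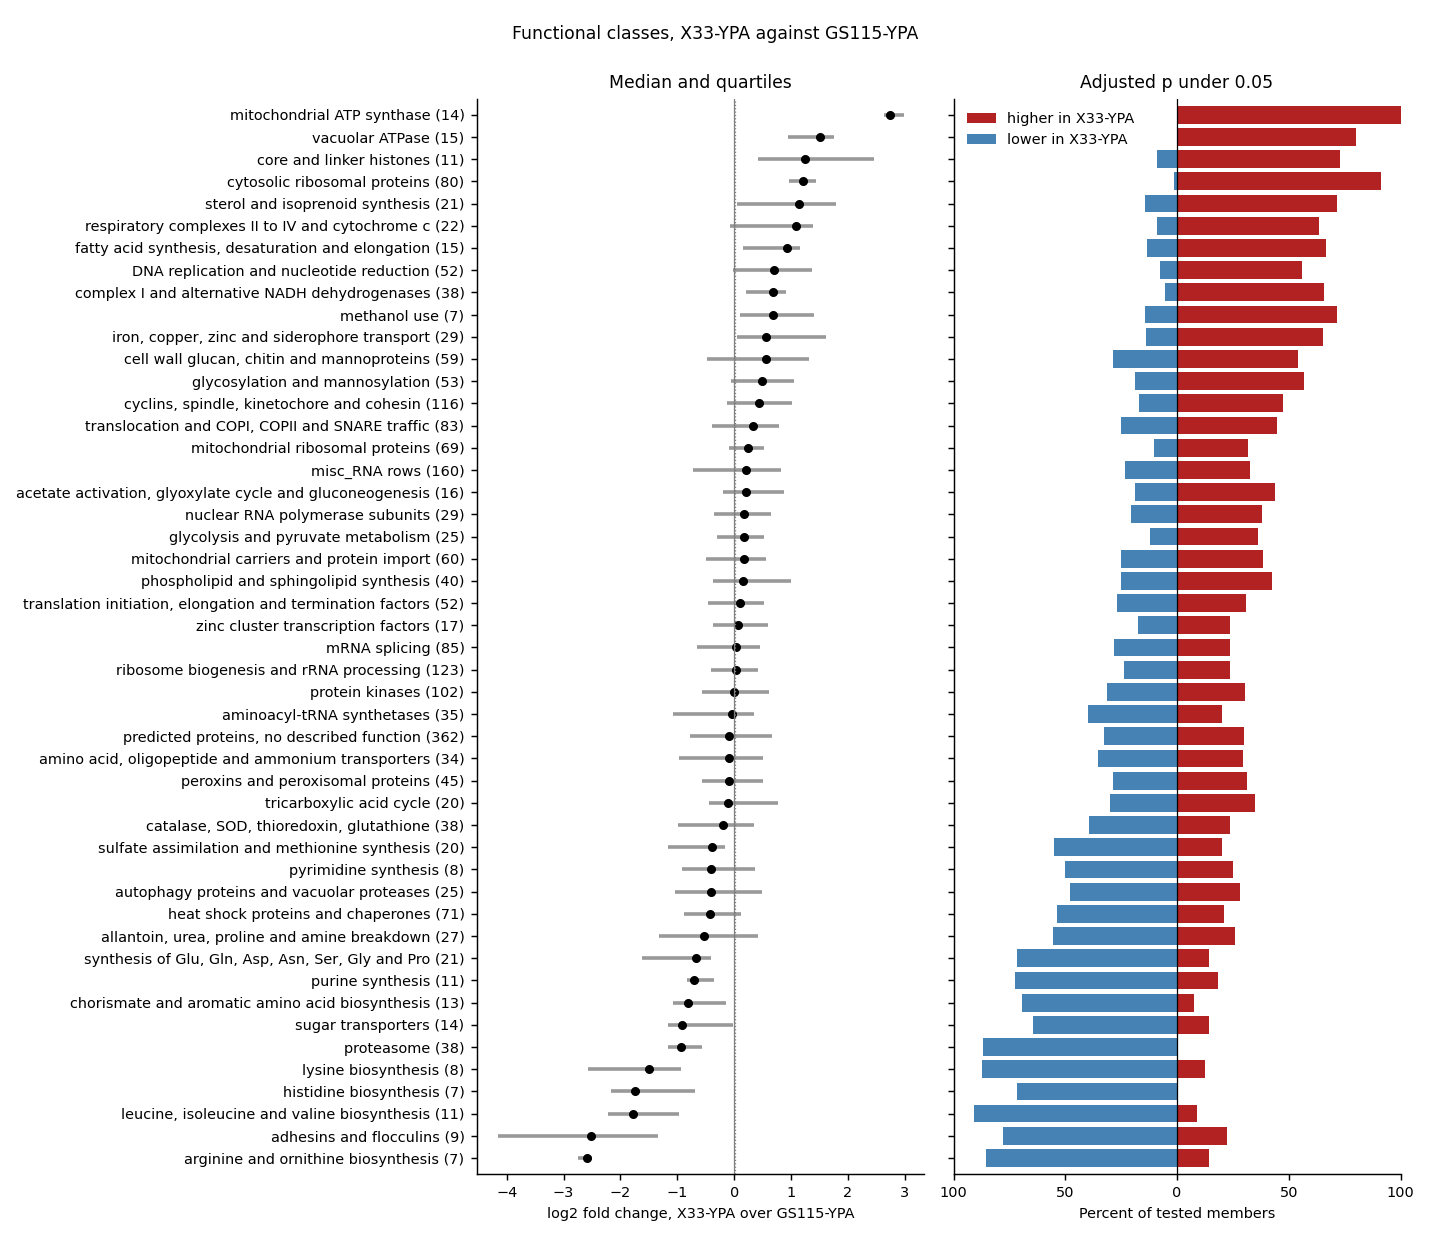
For each functional class, with its number of tested members, the left panel gives the median (point) and quartiles (bar) of the log2 fold change of X33-YPA over GS115-YPA, with the median of all 5426 genes as a dotted line, and the right panel the percent of members higher (red) or lower (blue) in X33-YPA at an adjusted p under 0.05. ATP synthase (14 of 14 risen, median 2.75) and arginine synthesis (6 of 7 fallen, median -2.59) lie at the ends.

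The cytosolic ribosome was the largest class to move nearly as a block. Of its 80 ribosomal protein genes 73 rose and 1 fell, with 6 not past the threshold, and the median log2 fold change was 1.21. Together they took 3.65 and 3.66% of the counts in X33-YPA, against 1.48 and 1.68% in GS115-YPA. The small (40S) subunit had 32 of 36 members up with a median of 1.33, and the large (60S) subunit 41 of 44 with a median of 1.17. BQ9382_C2-6575, large-subunit protein L30, was at 287 and 362 CPM in X33-YPA, against 83.8 and 101 CPM in GS115-YPA (log2 fold change 1.81 ± 0.17, adjusted p = 1e-05). BQ9382_C4-4825, small-subunit protein S6, was at 463 and 422 CPM in X33-YPA, against 119 and 139 CPM in GS115-YPA (log2 fold change 1.78 ± 0.15, adjusted p = 6.7e-06). The duplicates of each strain lay close together and the strains were well apart for both, but the rule that named them requires strains without overlap. The most abundant member, L19 (BQ9382_C3-6060), had a smaller change, 1122 and 1178 CPM in X33-YPA against 656 and 779 CPM in GS115-YPA (log2 fold change 0.68 ± 0.14, adjusted p = 0.0021). The only member that fell, BQ9382_C3-4900, is described as a small-subunit protein but named uncharacterized, and was at 47.6 and 53.5 CPM in X33-YPA, against 68.8 and 70.7 CPM in GS115-YPA (log2 fold change -0.46 ± 0.13, adjusted p = 0.0093). Its call was lost without library C (-0.42), which left no member that fell, and without library A 2 members fell.

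Genes that build ribosomes did not share this pattern. Of 123 ribosome biogenesis genes 29 rose and 29 fell, with 65 not past the threshold (median 0.02). That is 23.6% in each direction, under the shares over all genes. URB2, which acts in the metabolism of the ribosomal RNA precursor, was at 6.77 and 7.06 CPM in X33-YPA, against 36.7 and 29.97 CPM in GS115-YPA (log2 fold change -2.27 ± 0.17, adjusted p = 3.4e-06), whereas BQ9382_C4-0650, annotated as the pre-18S rRNA maturation factor UTP22, was at 50.6 and 50.7 CPM in X33-YPA, against 20.2 and 26.3 CPM in GS115-YPA (log2 fold change 1.12 ± 0.16, adjusted p = 0.00017). Mitochondrial ribosomal proteins, made for the separate ribosome of that organelle, were mixed as well, with 22 of 69 up, 7 down and a median of 0.24. RNA polymerase subunits had 11 up and 6 down of 29. These counts rested in part on X33-YPA libraries: without D, 19 biogenesis and 14 mitochondrial ribosomal genes rose and 3 polymerase genes fell, and without C 7 polymerase genes rose.

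Among 52 translation factors 16 rose (30.8%) and 14 fell (26.9%), under the shares over all genes, with 22 not past the threshold. The alpha subunit of eIF2 (BQ9382_C3-6125), the target of Gcn2 in budding yeast, was at 71.3 and 77.4 CPM in X33-YPA, against 289 and 321 CPM in GS115-YPA (log2 fold change -2.04 ± 0.14, adjusted p = 2.1e-06). Subunit B of eIF3 (BQ9382_C3-2665), which joins the small subunit before it scans a message, moved the other way and was at 297 and 312 CPM in X33-YPA, against 74.1 and 76.7 CPM in GS115-YPA (log2 fold change 2.01 ± 0.13, adjusted p = 1.6e-06). TEF2, the elongation factor that brings charged tRNAs to the ribosome, was at 6238 and 5636 CPM in X33-YPA, against 8976 and 10986 CPM in GS115-YPA (log2 fold change -0.75 ± 0.15, adjusted p = 0.0017). Aminoacyl-tRNA synthetases, which charge the tRNAs, had 7 up and 14 down of 35. Lysyl-tRNA synthetase (BQ9382_C3-1235) was at 139 and 137 CPM in X33-YPA, against 634 and 822 CPM in GS115-YPA (log2 fold change -2.40 ± 0.17, adjusted p = 2.1e-06), and isoleucyl-tRNA synthetase (BQ9382_C4-1340) at 77.0 and 83.8 CPM in X33-YPA, against 299 and 353 CPM in GS115-YPA (log2 fold change -2.02 ± 0.16, adjusted p = 4.3e-06). The row named as mitochondrial histidyl-tRNA synthetase (BQ9382_C1-1295) was among those that rose, at 89.2 and 80.8 CPM in X33-YPA, against 44.2 and 32.6 CPM in GS115-YPA (log2 fold change 1.15 ± 0.16, adjusted p = 0.00018).

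The mitochondrial ATP synthase, which makes ATP from the proton gradient across the inner membrane, rose as a whole. All 14 annotated subunits passed the test, with log2 fold changes between 2.25 and 3.27 around a median of 2.75. They held 1.91 and 1.98% of the counts in X33-YPA, against 0.215 and 0.224% in GS115-YPA. The catalytic beta subunit (BQ9382_C2-0955) was counted at 6571 and 7299 CPM in X33-YPA, against 686 and 781 CPM in GS115-YPA (log2 fold change 3.24 ± 0.16, adjusted p = 3.4e-07). The alpha subunit (BQ9382_C3-3350), its partner in the catalytic head, was at 5247 and 5788 CPM in X33-YPA, against 559 and 659 CPM in GS115-YPA (log2 fold change 3.18 ± 0.16, adjusted p = 4e-07). ATP16, the delta subunit of the central stalk, was at 962 and 1019 CPM in X33-YPA, against 111 and 94.6 CPM in GS115-YPA (log2 fold change 3.27 ± 0.16, adjusted p = 3.4e-07). In these genes the lower X33-YPA library stood far above the higher GS115-YPA library, but the rule that named them requires strains without overlap.

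The second rotary enzyme, the V-ATPase that acidifies the vacuole, had 12 of 15 subunits up and none down by the test, with a median of 1.502. All 8 genes of its peripheral (V1) sector rose, with a median of 1.54, and 4 of the 7 of its membrane (V0) sector, with a median of 1.06. Subunit A of V1 (BQ9382_C1-3235), which holds the catalytic site, was at 367 and 368 CPM in X33-YPA, against 100.2 and 109 CPM in GS115-YPA (log2 fold change 1.81 ± 0.14, adjusted p = 4.2e-06). Subunit a of V0 (BQ9382_C3-0425) was at 188 and 186 CPM in X33-YPA, against 43.0 and 48.0 CPM in GS115-YPA (log2 fold change 2.04 ± 0.14, adjusted p = 2.3e-06).

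The respiratory chain that feeds the ATP synthase had lower medians, which differed from step to step. Complex I, which oxidises NADH and pumps protons, was counted in a class with the alternative (type II) NADH dehydrogenases, which are not part of it. That class had 25 of 38 genes up and 2 down (median 0.68). The 3 type II genes in it did not pass the test (median -0.05). The 49 kDa core subunit of complex I, NUCM (BQ9382_C3-2070), was at 199.9 and 224 CPM in X33-YPA, beside 185 and 233 CPM in GS115-YPA, and these ranges overlapped (log2 fold change 0.02 ± 0.17, adjusted p = 0.91). The class of complexes II to IV had 14 of 22 up and 2 down. Within it, cytochrome c oxidase subunits had 6 of 7 up with a median of 1.71, and subunits of the cytochrome bc1 complex 8 of 9 with a median of 1.15. Of the 5 genes of succinate dehydrogenase, complex II, none rose and 1 fell. That gene, the flavoprotein SDH1 (BQ9382_C4-1210), was at 1078 and 1271 CPM in X33-YPA, against 2365 and 2613 CPM in GS115-YPA (log2 fold change -1.08 ± 0.17, adjusted p = 0.00028). Subunit IV of cytochrome c oxidase (BQ9382_C2-5055) was at 609 and 669 CPM in X33-YPA, against 168 and 183 CPM in GS115-YPA (log2 fold change 1.87 ± 0.14, adjusted p = 3.4e-06).

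**Figure D2:**
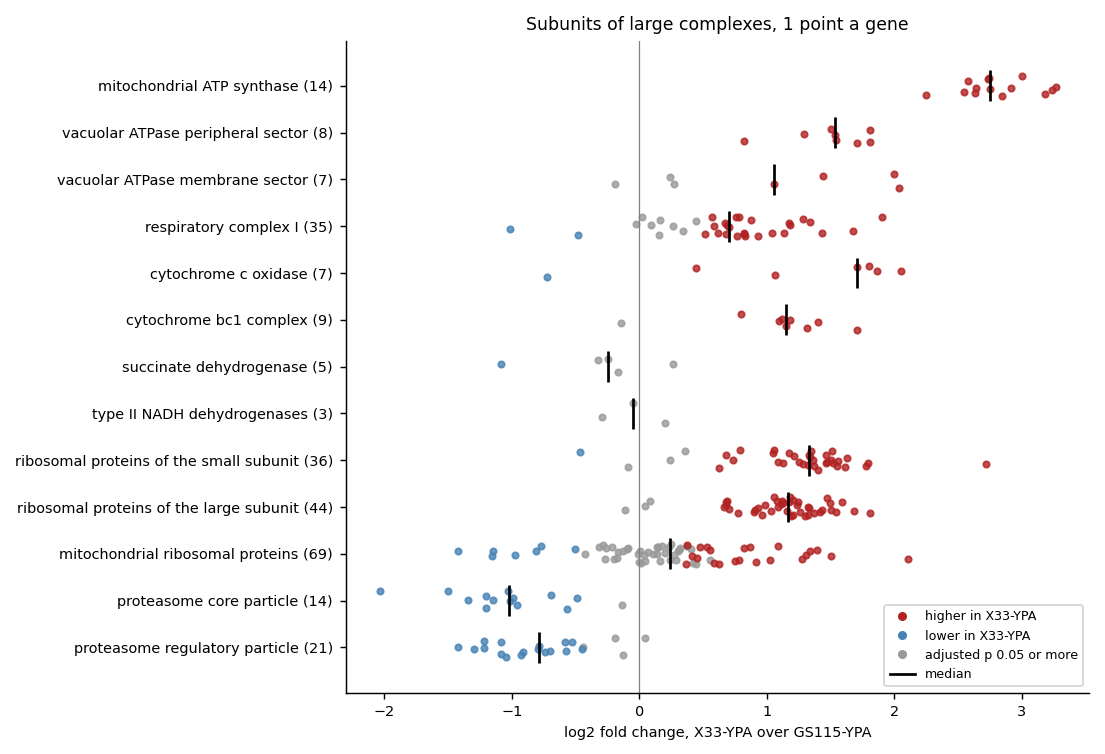
Log2 fold change of X33-YPA over GS115-YPA for each gene of the large complexes, coloured by whether it was higher (red), lower (blue) or past neither threshold (grey), with a bar at the median. The ATP synthase genes lie between 2.25 and 3.27 and the proteasome genes mostly below 0.

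The citric acid cycle did not move as a unit, and of 20 genes 7 rose (35%) and 6 fell (30%), with 7 not past the threshold. These shares were near those over all genes (33.4 and 32.8%). Citrate synthase (BQ9382_C1-2225), which takes acetyl-CoA into the cycle, was at 4752 and 5143 CPM in X33-YPA, against 1795 and 2191 CPM in GS115-YPA (log2 fold change 1.31 ± 0.16, adjusted p = 5.5e-05). The next enzyme, aconitase ACO1, was at 1505 and 1395 CPM in X33-YPA, against 2785 and 3691 CPM in GS115-YPA (log2 fold change -1.16 ± 0.16, adjusted p = 0.00017). Both NAD-dependent isocitrate dehydrogenase subunits rose, with log2 fold changes of 1.61 ± 0.16 (BQ9382_C2-6375) and 1.36 ± 0.15 (BQ9382_C4-2035). Both NADP-dependent isocitrate dehydrogenases fell, with -1.24 ± 0.13 (BQ9382_C1-2820) and -1.04 ± 0.16 (BQ9382_C2-3830). The enzymes that yield NADH and NADPH from the same substrate therefore had opposite signs.

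Most genes that make arginine, lysine, the branched-chain amino acids and histidine fell in the prototroph. In arginine synthesis, 6 of 7 genes fell and 1 rose, with a median of -2.59. Ornithine carbamoyltransferase (BQ9382_C3-3090), which joins ornithine and carbamoyl phosphate to citrulline, was counted at 6.995 and 6.26 CPM in X33-YPA, against 109 and 132 CPM in GS115-YPA (log2 fold change -4.19 ± 0.17, adjusted p = 1.5e-07). Argininosuccinate synthase ARG1 (BQ9382_C3-5320), the next step, was at 169 and 141 CPM in X33-YPA, against 788 and 1100.2 CPM in GS115-YPA (log2 fold change -2.61 ± 0.19, adjusted p = 2.9e-06). Acetylornithine aminotransferase (BQ9382_C4-1695) was at 39.8 and 32.7 CPM in X33-YPA, against 249 and 287 CPM in GS115-YPA (log2 fold change -2.89 ± 0.16, adjusted p = 5.9e-07). ARGJ, the acetyltransferase that recycles the acetyl group of the pathway, was the exception and was at 65.7 and 68.9 CPM in X33-YPA, against 21.6 and 18.9 CPM in GS115-YPA (log2 fold change 1.73 ± 0.13, adjusted p = 4e-06).

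In lysine synthesis, which fungi run through aminoadipate, 7 of 8 genes fell and 1 rose, with a median of -1.501. Homoaconitase LYS4 (BQ9382_C4-0840) was at 12.1 and 13.9 CPM in X33-YPA, against 249 and 302 CPM in GS115-YPA (log2 fold change -4.40 ± 0.19, adjusted p = 1.8e-07). Saccharopine dehydrogenase LYS1 (BQ9382_C1-3980), the last step, was at 151 and 163 CPM in X33-YPA, against 1063 and 1248 CPM in GS115-YPA (log2 fold change -2.88 ± 0.16, adjusted p = 5.9e-07). The 2 rows annotated as homocitrate synthase, the first and committed step, went in opposite directions. BQ9382_C1-6380 was at 246 and 261 CPM in X33-YPA, against 1106 and 1726 CPM in GS115-YPA (log2 fold change -2.48 ± 0.21, adjusted p = 6.1e-06). BQ9382_C1-3255 was at 135 and 119 CPM in X33-YPA, against 55.0 and 54.8 CPM in GS115-YPA (log2 fold change 1.21 ± 0.13, adjusted p = 3.2e-05). Isozymes can be close copies, and reads may be shared between the 2 rows.

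Leucine, isoleucine and valine share their first enzymes, and 10 of the 11 genes of their synthesis fell while 1 rose, with a median of -1.77. LEU1, isopropylmalate dehydratase (BQ9382_C2-5010), was at 33.9 and 33.7 CPM in X33-YPA, against 243 and 397 CPM in GS115-YPA (log2 fold change -3.24 ± 0.24, adjusted p = 3.1e-06). ILV3, dihydroxyacid dehydratase, was at 47.0 and 43.2 CPM in X33-YPA, against 184 and 229 CPM in GS115-YPA (log2 fold change -2.20 ± 0.17, adjusted p = 3.9e-06). Both rows annotated as the regulatory subunit of acetolactate synthase fell, with log2 fold changes of -2.24 ± 0.17 (BQ9382_C1-1075) and -2.40 ± 0.19 (BQ9382_C2-3840). ILV5 (BQ9382_C1-3900), the reductoisomerase and the most abundant member by counts, was at 1147 and 1094 CPM in X33-YPA, against 815 and 783 CPM in GS115-YPA (log2 fold change 0.49 ± 0.13, adjusted p = 0.0085). Without library C it did not pass the test (0.41).

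In the histidine pathway itself, 5 of 7 genes fell, none rose and 2 did not pass, with a median of -1.74. Histidinol-phosphate aminotransferase (BQ9382_C2-3235) was at 28.4 and 29.4 CPM in X33-YPA, against 172 and 181 CPM in GS115-YPA (log2 fold change -2.61 ± 0.13, adjusted p = 4.4e-07). Imidazoleglycerol-phosphate dehydratase (BQ9382_C3-2175) was at 246 and 340.3 CPM in X33-YPA, against 1376 and 1618 CPM in GS115-YPA (log2 fold change -2.35 ± 0.20, adjusted p = 7.2e-06). HIS1, which starts the pathway from phosphoribosyl pyrophosphate and ATP, was at 36.7 and 39.1 CPM in X33-YPA, against 132 and 121 CPM in GS115-YPA (log2 fold change -1.74 ± 0.14, adjusted p = 4.3e-06), and HIS7 (BQ9382_C4-1380), which closes the imidazole ring, at 38.95 and 34.8 CPM in X33-YPA, against 139 and 152 CPM in GS115-YPA (log2 fold change -1.98 ± 0.14, adjusted p = 2.3e-06). The fall of HIS4 was the smallest of the 5.

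**Figure D3:**
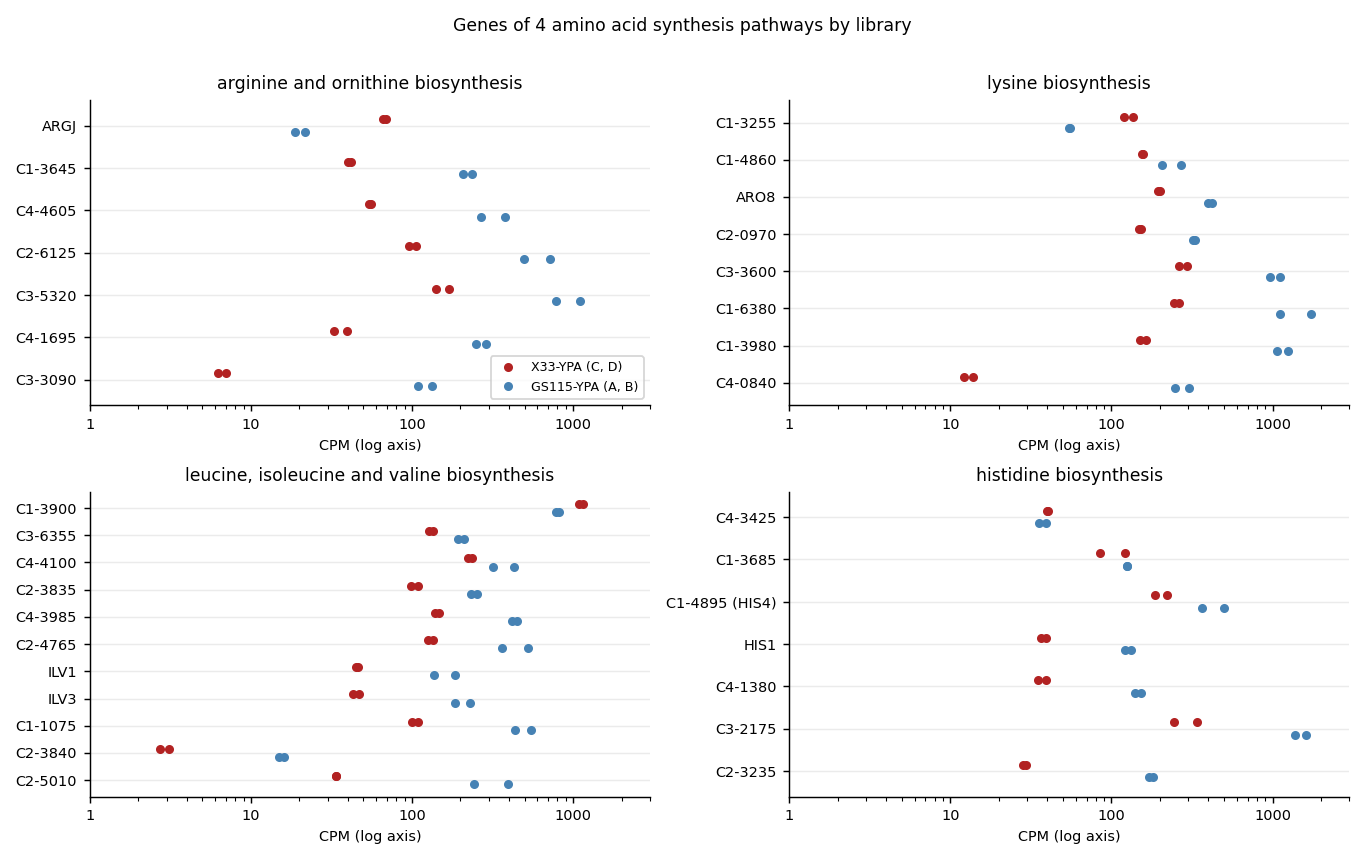
CPM on a log axis of every gene of the arginine, lysine, branched-chain and histidine pathways, 1 point a library, X33-YPA in red above GS115-YPA in blue. Most genes have their X33-YPA points left of their GS115-YPA points, and ARGJ, ILV5 (BQ9382_C1-3900) and the homocitrate synthase BQ9382_C1-3255 have them on the right.

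Other amino acid routes were lower with more exceptions. Of 13 genes of aromatic amino acid synthesis 9 fell and 1 rose (median -0.82). Without library A or B, 2 rose. Chorismate mutase (BQ9382_C4-5060), which commits chorismate to phenylalanine and tyrosine, was at 47.2 and 49.3 CPM in X33-YPA, against 198 and 207 CPM in GS115-YPA (log2 fold change -2.07 ± 0.15, adjusted p = 2.3e-06). The pentafunctional enzyme ARO1 was at 207 and 214 CPM in X33-YPA, against 392 and 499.9 CPM in GS115-YPA (log2 fold change -1.08 ± 0.16, adjusted p = 0.00021). The class of glutamate, glutamine, serine and aspartate-family genes had 15 of 21 down and 3 up (median -0.67). Asparagine synthetase (BQ9382_C3-2800) was at 90.9 and 94.9 CPM in X33-YPA, against 528 and 823 CPM in GS115-YPA (log2 fold change -2.86 ± 0.21, adjusted p = 3e-06). Aspartate-semialdehyde dehydrogenase (BQ9382_C3-3885), at the branch to methionine and threonine, was at 247 and 218 CPM in X33-YPA, against 899.8 and 921 CPM in GS115-YPA (log2 fold change -1.97 ± 0.14, adjusted p = 2.5e-06). Glutamine synthetase (BQ9382_C4-0910) was at 8213 and 8618 CPM in X33-YPA, beside 5944 and 7796 CPM in GS115-YPA and did not pass the test (log2 fold change 0.29 ± 0.16, adjusted p = 0.13), but passed it at 0.50 without library B and at 0.36 with library totals in place of TMM scaling.

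Sulfur assimilation and methionine genes went both ways. Of 20 genes 11 fell and 4 rose (median -0.40). The rule named MET3, which opens the route from sulfate to sulfide. It was at 20.4 and 24.1 CPM in X33-YPA, against 174 and 227 CPM in GS115-YPA (log2 fold change -3.17 ± 0.18, adjusted p = 6.6e-07), and the beta subunit of sulfite reductase (BQ9382_C3-0470) at 35.4 and 37.1 CPM in X33-YPA, against 189 and 192 CPM in GS115-YPA (log2 fold change -2.39 ± 0.14, adjusted p = 8.4e-07). MET17 (BQ9382_C4-3500), which fixes sulfide into homocysteine, was at 79.5 and 75.05 CPM in X33-YPA, against 303 and 324 CPM in GS115-YPA (log2 fold change -2.02 ± 0.14, adjusted p = 1.9e-06). Methionine synthase (BQ9382_C2-6170), which methylates homocysteine, was at 605 and 520.3 CPM in X33-YPA, against 138 and 189 CPM in GS115-YPA (log2 fold change 1.78 ± 0.18, adjusted p = 1.9e-05), and the reductase that supplies its folate (BQ9382_C2-0815) at 32.2 and 25.4 CPM in X33-YPA, against 11.1 and 9.46 CPM in GS115-YPA (log2 fold change 1.48 ± 0.17, adjusted p = 4.5e-05).

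Purine synthesis branches from the same precursor as histidine, and 8 of its 11 genes fell while 2 rose (median -0.71). Without C, D, E or F, 1 rose. ADE6 was at 110.4 and 112 CPM in X33-YPA, against 308 and 388 CPM in GS115-YPA (log2 fold change -1.65 ± 0.15, adjusted p = 1.2e-05) and ADE1 at 114 and 105 CPM in X33-YPA, against 305 and 302 CPM in GS115-YPA (log2 fold change -1.47 ± 0.14, adjusted p = 1.5e-05). The gene that rose most was BQ9382_C2-3375, annotated as purH, the enzyme at which the by-product of histidine synthesis rejoins the purine route, at 305 and 297 CPM in X33-YPA, against 165 and 190.3 CPM in GS115-YPA (log2 fold change 0.76 ± 0.14, adjusted p = 0.00096). Pyrimidine synthesis had 2 up and 4 down of 8, and orotate phosphoribosyltransferase (BQ9382_C3-3565) was at 42.4 and 42.8 CPM in X33-YPA, against 144 and 138 CPM in GS115-YPA (log2 fold change -1.73 ± 0.13, adjusted p = 3e-06).

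The highest fold change by the naming rule was that of an amino acid transporter. The general amino acid permease BQ9382_C1-1685 was counted at 1150.2 and 1113 CPM in X33-YPA, against 8.91 and 11.6 CPM in GS115-YPA (log2 fold change 6.78 ± 0.20, adjusted p = 5.8e-08). It was low in both auxotroph libraries in YPA and reached 1094 and 1019.7 CPM in GS115-YPAH5x. The class of amino acid, oligopeptide, polyamine and ammonium transporters as a whole was mixed, with 10 up (29.4%) and 12 down (35.3%) of 34. These shares were near those over all genes. The proline permease (BQ9382_C2-3380) was at 379 and 469 CPM in X33-YPA, against 29.4 and 37.9 CPM in GS115-YPA (log2 fold change 3.65 ± 0.19, adjusted p = 4.7e-07), and the high-affinity methionine permease (BQ9382_C2-5105) at 472 and 391 CPM in X33-YPA, against 39.3 and 56.5 CPM in GS115-YPA (log2 fold change 3.17 ± 0.21, adjusted p = 1.6e-06). The dicarboxylic amino acid permease (BQ9382_C4-3750), a carrier of glutamate and aspartate in budding yeast, was at 252 and 221 CPM in X33-YPA, against 35.6 and 43.9 CPM in GS115-YPA (log2 fold change 2.57 ± 0.18, adjusted p = 1.9e-06). Among those that fell were a polyamine transporter (BQ9382_C1-1145), at 16.6 and 14.9 CPM in X33-YPA, against 77.2 and 120.3 CPM in GS115-YPA (log2 fold change -2.65 ± 0.21, adjusted p = 4.1e-06), and an oligopeptide transporter (BQ9382_C4-5300), at 0.504 and 0.501 CPM in X33-YPA, against 4.01 and 1.90 CPM in GS115-YPA (log2 fold change -2.54 ± 0.47, adjusted p = 0.00097). Without library A the oligopeptide transporter was at -1.96. Permeases of this family are similar in sequence, and reads may be shared between rows.

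Genes for breaking down nitrogen compounds went both ways. Of the 27 genes of the class 7 rose and 15 fell. Proline oxidase (BQ9382_C1-1425), the first step from proline to glutamate, was at 161 and 284 CPM in X33-YPA, against 29.2 and 36.1 CPM in GS115-YPA (log2 fold change 2.77 ± 0.26, adjusted p = 1.1e-05). The second step, pyrroline-5-carboxylate dehydrogenase (BQ9382_C2-2330), was at 668 and 891 CPM in X33-YPA, against 145 and 153 CPM in GS115-YPA (log2 fold change 2.39 ± 0.17, adjusted p = 2.6e-06). Arginase (BQ9382_C4-1485), which splits arginine into ornithine and urea, was at 858 and 920.3 CPM in X33-YPA, against 322 and 228 CPM in GS115-YPA (log2 fold change 1.69 ± 0.18, adjusted p = 2.6e-05). The enzymes of urea and allantoin use given here were named because they fell. Urea amidolyase (BQ9382_C4-4405) was at 43.1 and 41.4 CPM in X33-YPA, against 397 and 641 CPM in GS115-YPA (log2 fold change -3.62 ± 0.23, adjusted p = 1.1e-06), and allantoinase DAL1 at 15.4 and 15.7 CPM in X33-YPA, against 85.1 and 105 CPM in GS115-YPA (log2 fold change -2.62 ± 0.15, adjusted p = 7.5e-07). A nitrilase (BQ9382_C2-6835), which hydrolyses organic nitriles, was at 5.20 and 7.33 CPM in X33-YPA, against 373 and 379 CPM in GS115-YPA (log2 fold change -5.90 ± 0.26, adjusted p = 2.4e-07). Arginine synthesis and arginase thus had opposite signs, and so did arginase and the enzyme that uses its urea.

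Most histone and replication genes were higher in X33-YPA. Of 11 histone genes 8 rose and 1 fell, with 2 not past the threshold (median 1.25). The adjacent pair of histone H4 (BQ9382_C2-1155) and H3 (BQ9382_C2-1150) had the largest change. H4 was at 253 and 269 CPM in X33-YPA, against 8.57 and 7.61 CPM in GS115-YPA (log2 fold change 5.01 ± 0.20, adjusted p = 1.5e-07), and H3 at 482 and 564 CPM in X33-YPA, against 19.3 and 16.0 CPM in GS115-YPA (log2 fold change 4.89 ± 0.19, adjusted p = 1.5e-07). A second copy of H3 (BQ9382_C1-8120) was at 1028 and 1179.7 CPM in X33-YPA, against 901 and 645 CPM in GS115-YPA (log2 fold change 0.51 ± 0.18, adjusted p = 0.027). That call was lost without B (0.29), C (0.57), D (0.37) or F (0.49), and the single member that fell was no longer called without A or C. Histones H2B (BQ9382_C2-4690) and H2A (BQ9382_C2-4685) were at 359 and 363 and at 503 and 473 CPM in X33-YPA, against 62.5 and 67.5 and 109 and 70.9 CPM in GS115-YPA, with log2 fold changes of 2.47 ± 0.15 and 2.44 ± 0.20. The copies of H3 and H4 are nearly identical, and the split of reads between them is uncertain.

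Of 52 genes that copy DNA or make its precursors 29 rose and 4 fell, with a median of 0.70. The large subunit of ribonucleotide reductase (BQ9382_C1-3085), which makes deoxyribonucleotides, was at 280.1 and 293 CPM in X33-YPA, against 15.3 and 16.9 CPM in GS115-YPA (log2 fold change 4.15 ± 0.16, adjusted p = 1.5e-07). A second row of the same enzyme (BQ9382_C2-5895) went the other way and was at 14.6 and 11.1 CPM in X33-YPA, against 51.5 and 43.3 CPM in GS115-YPA (log2 fold change -1.89 ± 0.17, adjusted p = 9.4e-06). Of the 6 MCM helicase genes that unwind origins, 5 rose and none fell, with a median of 1.42, and MCM3 (BQ9382_C2-6220) was at 46.4 and 38.7 CPM in X33-YPA, against 11.3 and 8.20 CPM in GS115-YPA (log2 fold change 2.13 ± 0.18, adjusted p = 7.2e-06). FEN1, which trims Okazaki fragments, was at 13.1 and 12.2 CPM in X33-YPA, against 1.77 and 1.74 CPM in GS115-YPA (log2 fold change 2.85 ± 0.19, adjusted p = 1.6e-06).

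The class of cyclins, tubulins, spindle and kinetochore genes had 55 of 116 up and 20 down (median 0.44). Beta-tubulin (BQ9382_C4-2295) was at 332 and 313 CPM in X33-YPA, against 52.4 and 45.0 CPM in GS115-YPA (log2 fold change 2.73 ± 0.15, adjusted p = 5.9e-07). A G1 cyclin (BQ9382_C1-4345) was at 40.7 and 44.7 CPM in X33-YPA, against 7.06 and 10.9 CPM in GS115-YPA (log2 fold change 2.25 ± 0.20, adjusted p = 8.2e-06). The kinase annotated as DBF2 (BQ9382_C3-2375), which acts at the exit from mitosis in budding yeast, was at 135 and 119 CPM in X33-YPA, against 9.72 and 9.71 CPM in GS115-YPA (log2 fold change 3.71 ± 0.17, adjusted p = 3.4e-07). The kinase annotated as the meiosis inducer IME2 (BQ9382_C1-0180) had the opposite sign and was at 4.59 and 3.94 CPM in X33-YPA, against 58.6 and 83.0 CPM in GS115-YPA (log2 fold change -4.06 ± 0.21, adjusted p = 4.7e-07). The rule that named these 4 genes requires that the strains do not overlap, so that their lack of overlap adds nothing. Over 102 protein kinases 31 rose (30.4%) and 32 fell (31.4%), near the shares over all genes.

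More genes of protein folding and degradation fell in X33-YPA than rose. Chaperones took up more of each library than any other class, 19.2 and 19.6% of the counts in X33-YPA, against 31.3 and 30.6% in GS115-YPA. Of 71 chaperone genes 15 rose, 38 fell and 18 did not pass (median -0.42). Without library C, 7 rose. The Hsp70 gene annotated as SSA3 (BQ9382_C3-5235), the most abundant gene of the table by counts, was at 46367 and 46336 CPM in X33-YPA, against 64812 and 72471 CPM in GS115-YPA (log2 fold change -0.57 ± 0.14, adjusted p = 0.0053). HSP104, which pulls aggregated proteins apart, was at 26995 and 26796 CPM in X33-YPA, against 49334 and 46905 CPM in GS115-YPA (log2 fold change -0.84 ± 0.14, adjusted p = 0.00044). Hsp90 (BQ9382_C1-4735) was at 17008 and 18387 CPM in X33-YPA, against 38796 and 34689.7 CPM in GS115-YPA (log2 fold change -1.05 ± 0.14, adjusted p = 0.00013), and BiP (BQ9382_C2-6260), the Hsp70 of the endoplasmic reticulum, at 8956 and 10035 CPM in X33-YPA, against 20684 and 20694 CPM in GS115-YPA (log2 fold change -1.12 ± 0.15, adjusted p = 9.3e-05). The changes of these abundant genes were near or below 1 log2 unit. FES1 (BQ9382_C2-6810), which releases ADP from Hsp70, fell more and was at 1901 and 2241 CPM in X33-YPA, against 8520.1 and 7939.6 CPM in GS115-YPA (log2 fold change -1.99 ± 0.15, adjusted p = 3.7e-06). Subunits of prefoldin, which hands unfolded actin and tubulin to the TCP1 ring, had 4 of 7 up and 3 down, while 4 of 6 genes of the ring itself fell and none rose.

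**Figure D4:**
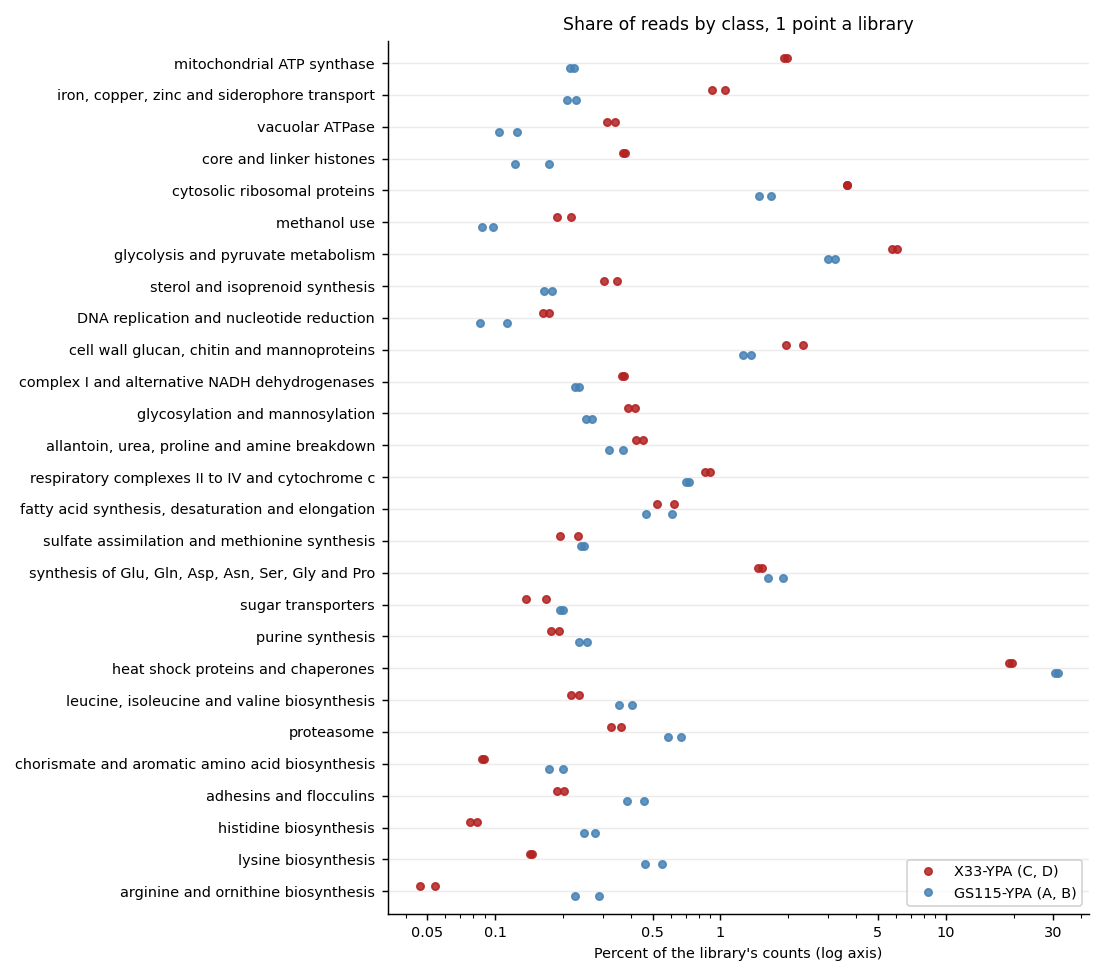
Percent of all counts taken by functional classes in each library on a log axis, with X33-YPA libraries C and D in red above GS115-YPA libraries A and B in blue. Chaperones took 19.2 and 19.6% in X33-YPA, against 31.3 and 30.6% in GS115-YPA, and ATP synthase 1.91 and 1.98% in X33-YPA, against 0.215 and 0.224% in GS115-YPA.

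The proteasome, the protease that takes apart ubiquitinated proteins, fell nearly throughout. Of 38 genes 33 fell and none rose, with a median of -0.94, and they held 0.362 and 0.327% of the counts in X33-YPA, against 0.669 and 0.586% in GS115-YPA. The barrel-shaped core had 13 of 14 genes down (median -1.02) and the regulatory particle 17 of 21 (median -0.79), among them all 6 ATPases (median -1.0). The beta-3 core subunit (BQ9382_C2-0400) was at 52.2 and 55.3 CPM in X33-YPA, against 243 and 199 CPM in GS115-YPA (log2 fold change -2.04 ± 0.15, adjusted p = 3.2e-06), and an alpha core subunit (BQ9382_C3-4000) at 144 and 144 CPM in X33-YPA, against 379 and 352 CPM in GS115-YPA (log2 fold change -1.34 ± 0.13, adjusted p = 1.9e-05). RPN13 (BQ9382_C2-3740), a receptor for ubiquitin, was at 21.0 and 22.2 CPM in X33-YPA, against 63.4 and 52.5 CPM in GS115-YPA (log2 fold change -1.43 ± 0.14, adjusted p = 1.8e-05).

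Autophagy and vacuolar protease genes had 7 up and 12 down of 25. ATG30, the receptor that marks peroxisomes for degradation in this yeast, was at 41.4 and 35.5 CPM in X33-YPA, against 122 and 198 CPM in GS115-YPA (log2 fold change -2.05 ± 0.22, adjusted p = 2.6e-05), and the kinase ATG1 (BQ9382_C2-3475) at 87.7 and 98.4 CPM in X33-YPA, against 179 and 243 CPM in GS115-YPA (log2 fold change -1.18 ± 0.17, adjusted p = 0.0002). Vacuolar enzymes were on both sides: carboxypeptidase Y (CBPY) was at 212 and 215 CPM in X33-YPA, against 69.6 and 67.5 CPM in GS115-YPA (log2 fold change 1.64 ± 0.13, adjusted p = 4.8e-06) and proteinase B (BQ9382_C1-2790) at 974 and 879 CPM in X33-YPA, against 1764 and 2032 CPM in GS115-YPA (log2 fold change -1.04 ± 0.15, adjusted p = 0.00021). Redox genes had 9 up and 15 down of 38. Copper-zinc superoxide dismutase (BQ9382_C4-0905) was at 658 and 969 CPM in X33-YPA, against 2985 and 3213 CPM in GS115-YPA (log2 fold change -1.93 ± 0.19, adjusted p = 1.7e-05), and a thiol peroxidase (BQ9382_C1-5000) at 46.2 and 48.8 CPM in X33-YPA, against 269 and 211 CPM in GS115-YPA (log2 fold change -2.34 ± 0.16, adjusted p = 1.8e-06). A mitochondrial peroxiredoxin (BQ9382_C3-1490) rose and was at 185 and 179 CPM in X33-YPA, against 58.2 and 57.7 CPM in GS115-YPA (log2 fold change 1.65 ± 0.13, adjusted p = 4.3e-06).

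Growth on acetate needs its uptake, its activation and the glyoxylate cycle, and of 16 genes of this class 7 rose and 3 fell, with 6 not past the threshold (median 0.20). Rows described as the acetate and ammonia transporter family were mixed. BQ9382_C1-3830, BQ9382_C1-3590 and BQ9382_C1-2420 rose, with log2 fold changes of 2.89 ± 0.18, 1.97 ± 0.28 and 1.02 ± 0.17. Among further rows of that description, both named after their values were seen, BQ9382_C1-3825 did not pass the test (0.22 ± 0.14) and BQ9382_C2-3430, which is in no class, fell (-0.91 ± 0.20). Acetyl-CoA synthetase (BQ9382_C2-2770), which activates acetate, was at 834 and 698 CPM in X33-YPA, against 200.4 and 239 CPM in GS115-YPA (log2 fold change 1.80 ± 0.19, adjusted p = 2.6e-05). Malate synthase (BQ9382_C4-4310), of the glyoxylate cycle, was at 2758 and 2791 CPM in X33-YPA, against 4794 and 5882 CPM in GS115-YPA (log2 fold change -0.94 ± 0.15, adjusted p = 0.00034). PCK1, which opens gluconeogenesis from oxaloacetate, was at 11107 and 10875 CPM in X33-YPA, against 15012 and 18439 CPM in GS115-YPA (log2 fold change -0.61 ± 0.15, adjusted p = 0.0052).

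Glycolytic and fermentative genes held 5.79 and 6.09% of the counts in X33-YPA, against 2.996 and 3.22% in GS115-YPA, a share that weighs abundant genes most. Of 25 genes 9 rose (36%) and 3 fell (12%), with 13 not past the threshold (median 0.18). Over all genes 33.4% rose and 32.8% fell. Alcohol dehydrogenase 2 (BQ9382_C2-4425) was at 15583 and 17713 CPM in X33-YPA, against 2255 and 2293 CPM in GS115-YPA (log2 fold change 2.87 ± 0.15, adjusted p = 5.7e-07). Glyceraldehyde-3-phosphate dehydrogenase (BQ9382_C2-4615) was at 19011 and 21657 CPM in X33-YPA, against 11407 and 12745 CPM in GS115-YPA (log2 fold change 0.75 ± 0.14, adjusted p = 0.0012). The phosphofructokinase subunits PFKA1 and PFKA3, of the enzyme that commits sugar to glycolysis, had log2 fold changes of 1.75 ± 0.16 and 2.07 ± 0.16. Sugar and glycerol transporters were mostly lower, with 9 of 14 down and 2 up (median -0.93). A high-affinity glucose transporter (BQ9382_C1-0035) was at 66.4 and 56.9 CPM in X33-YPA, against 249 and 214 CPM in GS115-YPA (log2 fold change -1.91 ± 0.15, adjusted p = 4.4e-06), and PpHXT1 was an exception at 869.8 and 724 CPM in X33-YPA, against 367 and 620.3 CPM in GS115-YPA (log2 fold change 0.69 ± 0.23, adjusted p = 0.024). The call of PpHXT1 was lost without library A (0.32) or C (0.51). Without C no transporter rose, without A 1 did, and without A 5 glycolytic genes fell.

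Methanol utilization genes, induced by methanol in this yeast, were also counted in this methanol-free medium. Of 7 genes 5 rose and 1 fell, with 1 not past the threshold (median 0.68). Alcohol oxidase 1 (ALOX1), the first enzyme of the pathway, was at 371 and 429.5 CPM in X33-YPA, against 10.7 and 10.9 CPM in GS115-YPA (log2 fold change 5.21 ± 0.17, adjusted p = 6.7e-08), and its paralogue ALOX2 at 72.7 and 63.7 CPM in X33-YPA, against 37.3 and 36.0 CPM in GS115-YPA (log2 fold change 0.90 ± 0.13, adjusted p = 0.00025). Formate dehydrogenase (BQ9382_C3-1335), the last step to carbon dioxide, was at 938 and 767 CPM in X33-YPA, against 178 and 278 CPM in GS115-YPA (log2 fold change 1.90 ± 0.22, adjusted p = 4.2e-05). The oxidase genes are near copies, so that part of the reads may be shared between them. Peroxisome genes, whose products house the oxidase, had 14 up (31.1%) and 13 down (28.9%) of 45, near the shares over all genes. Catalase (BQ9382_C2-0735), which removes the hydrogen peroxide made in peroxisomes, was at 158 and 156 CPM in X33-YPA, against 215 and 410.1 CPM in GS115-YPA (log2 fold change -0.996 ± 0.27, adjusted p = 0.0085). Catalase did not pass without library B (-0.46). Without C, 9 peroxisome genes rose, and without D no methanol gene fell.

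Most genes of sterol and fatty acid synthesis rose. Of 21 genes from acetyl-CoA to ergosterol 15 rose and 3 fell (median 1.14). ERG10, the thiolase that opens the route, was at 120.5 and 118 CPM in X33-YPA, against 20.8 and 23.97 CPM in GS115-YPA (log2 fold change 2.41 ± 0.14, adjusted p = 7.7e-07). ERG3, the C-5 desaturase near its end, was at 1266 and 1039 CPM in X33-YPA, against 286 and 318 CPM in GS115-YPA (log2 fold change 1.93 ± 0.16, adjusted p = 5.3e-06). Lanosterol synthase (BQ9382_C2-4890), which closes the sterol rings, was at 97.1 and 63.4 CPM in X33-YPA, against 18.8 and 22.4 CPM in GS115-YPA (log2 fold change 1.96 ± 0.20, adjusted p = 2.3e-05). Of 15 fatty acid genes 10 rose and 2 fell (median 0.92). Acetyl-CoA carboxylase ACC1 was at 303 and 289.9 CPM in X33-YPA, against 117 and 138 CPM in GS115-YPA (log2 fold change 1.22 ± 0.15, adjusted p = 5.7e-05), and the synthase subunit FAS2 at 252 and 253 CPM in X33-YPA, against 62.6 and 68.4 CPM in GS115-YPA (log2 fold change 1.95 ± 0.14, adjusted p = 2.3e-06). Phospholipid and sphingolipid genes were mixed, with 17 up and 10 down of 40, and the sphingolipid C9-methyltransferase C9MT was at 107 and 117 CPM in X33-YPA, against 25.8 and 23.3 CPM in GS115-YPA (log2 fold change 2.188 ± 0.14, adjusted p = 1.4e-06).

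Genes of the cell wall and of glycosylation rose more often than they fell. Of 59 cell wall genes 32 rose (54.2%) and 17 fell (28.8%), with a median of 0.56. Over all genes 33.4% rose and 32.8% fell. The wall protein annotated as Tip1p (BQ9382_C3-2685) was at 2820.1 and 3028 CPM in X33-YPA, against 135 and 203 CPM in GS115-YPA (log2 fold change 4.11 ± 0.21, adjusted p = 4.7e-07). SCW11 (BQ9382_C2-6750), a glucanase of daughter cells in budding yeast, was at 146 and 163 CPM in X33-YPA, against 19.5 and 21.7 CPM in GS115-YPA (log2 fold change 2.91 ± 0.19, adjusted p = 1.3e-06). An endoglucanase (BQ9382_C4-5070) that is counted in the class but annotated as intracellular was at 5.68 and 3.62 CPM in X33-YPA, against 50.4 and 72.3 CPM in GS115-YPA (log2 fold change -3.73 ± 0.26, adjusted p = 2.3e-06). Genes of glycosylation, which dresses wall and secreted proteins with sugars, had 30 up and 10 down of 53. Beta-mannosyltransferase BMT3 was at 23.6 and 30.2 CPM in X33-YPA, against 4.61 and 3.53 CPM in GS115-YPA (log2 fold change 2.73 ± 0.22, adjusted p = 5.2e-06), and ALG3, which extends the lipid-linked sugar chain, at 14.5 and 15.7 CPM in X33-YPA, against 63.4 and 71.2 CPM in GS115-YPA (log2 fold change -2.16 ± 0.15, adjusted p = 2e-06).

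Adhesins, which hold yeast cells to each other and to surfaces, were lower in X33-YPA in 7 of 9 genes and higher in 2 (median -2.52). Without library C, 1 was higher. The GLEYA-domain gene BQ9382_C1-8280 had the lowest fold change by the naming rule and was at 1.04 and 0.569 CPM in X33-YPA, against 109 and 92.7 CPM in GS115-YPA (log2 fold change -7.001 ± 0.38, adjusted p = 5.7e-07). The agglutinin-like gene BQ9382_C3-6505 was at 4.14 and 3.46 CPM in X33-YPA, against 269 and 298 CPM in GS115-YPA (log2 fold change -6.22 ± 0.19, adjusted p = 5.8e-08). Both were near the bottom of the count range in X33-YPA and well counted in GS115-YPA. The row annotated as the flocculin FLO11 (BQ9382_C2-1460) was at 483 and 417 CPM in X33-YPA, against 2289 and 2876 CPM in GS115-YPA (log2 fold change -2.52 ± 0.17, adjusted p = 1.6e-06). Of 5 GLEYA genes 4 fell and 1 rose. That one, BQ9382_C3-6445, was at 498 and 592 CPM in X33-YPA, against 68.5 and 104 CPM in GS115-YPA (log2 fold change 2.66 ± 0.21, adjusted p = 4.2e-06). Adhesin genes carry repeats and similar domains, so that their counts are uncertain where reads can be shared.

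Secretory pathway genes had 37 up and 21 down of 83 (median 0.32). The alpha and beta subunits of coatomer, which coats vesicles that return to the endoplasmic reticulum, had log2 fold changes of 1.91 ± 0.15 (BQ9382_C1-3150) and 1.68 ± 0.14 (BQ9382_C4-0825). SEC24 (BQ9382_C3-3150), of the coat on vesicles that leave it, was at 169 and 176 CPM in X33-YPA, against 421 and 528 CPM in GS115-YPA (log2 fold change -1.46 ± 0.15, adjusted p = 2.5e-05).

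Most metal transport genes rose, 19 of 29, and 4 fell (median 0.56). They took 1.05 and 0.918% of the counts in X33-YPA, against 0.208 and 0.227% in GS115-YPA. The high-affinity copper transporter (BQ9382_C4-4355) was at 2943 and 2729 CPM in X33-YPA, against 160.3 and 155 CPM in GS115-YPA (log2 fold change 4.17 ± 0.16, adjusted p = 1.5e-07). The low-affinity iron transporter FET4 (BQ9382_C2-0030) was at 2171 and 1844 CPM in X33-YPA, against 143 and 166 CPM in GS115-YPA (log2 fold change 3.70 ± 0.18, adjusted p = 3.4e-07), and the multicopper oxidase that serves high-affinity iron uptake, FET3 (BQ9382_C2-2635), at 456 and 385 CPM in X33-YPA, against 31.9 and 38.3 CPM in GS115-YPA (log2 fold change 3.58 ± 0.17, adjusted p = 3.4e-07). A siderophore transporter (BQ9382_C3-2875) was at 736 and 721 CPM in X33-YPA, against 83.0 and 129 CPM in GS115-YPA (log2 fold change 2.78 ± 0.21, adjusted p = 3.2e-06). The 4 members that fell included both zinc transporters named by the rule, with log2 fold changes of -1.51 ± 0.18 (BQ9382_C4-2405) and -0.42 ± 0.15 (BQ9382_C3-1145). They were named because they fell, so that they say nothing of other zinc transporters. The call of BQ9382_C3-1145 was lost without B (-0.40), C (-0.30), E (-0.42) or F (-0.44).

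Among the 15 genes with the highest and the 15 with the lowest fold change that passed the naming rule, several have no annotated function. The predicted gene BQ9382_C1-0020 was at 2431 and 1834 CPM in X33-YPA, against 82.2 and 72.8 CPM in GS115-YPA (log2 fold change 4.78 ± 0.20, adjusted p = 1.7e-07), and BQ9382_C3-6130, named extracellular protein X1, at 251 and 275 CPM in X33-YPA, against 10.8 and 14.8 CPM in GS115-YPA (log2 fold change 4.36 ± 0.19, adjusted p = 2.2e-07). A subtilisin-like protease (BQ9382_C2-6105) was at 3822 and 4569 CPM in X33-YPA, against 109 and 195 CPM in GS115-YPA (log2 fold change 4.78 ± 0.28, adjusted p = 8.2e-07). On the other side, the predicted gene BQ9382_C1-0005 was at 1.06 and 0.638 CPM in X33-YPA, against 95.2 and 96.7 CPM in GS115-YPA (log2 fold change -6.84 ± 0.23, adjusted p = 6.7e-08), and BQ9382_C3-4655 at 2.69 and 3.14 CPM in X33-YPA, against 111 and 151 CPM in GS115-YPA (log2 fold change -5.48 ± 0.22, adjusted p = 1.5e-07). A zinc cluster transcription factor (BQ9382_C3-3755) was at 3.33 and 3.05 CPM in X33-YPA, against 65.7 and 85.2 CPM in GS115-YPA (log2 fold change -4.56 ± 0.18, adjusted p = 1.5e-07), while over all 17 zinc cluster factors 4 rose and 3 fell, with 10 not past the threshold. BQ9382_C1-8235 was counted at 17378 and 19632 CPM in X33-YPA, against 199 and 237 CPM in GS115-YPA (log2 fold change 6.41 ± 0.19, adjusted p = 5.8e-08). BQ9382_C1-2305 was at 9273 and 11055 CPM in X33-YPA, against 419 and 763 CPM in GS115-YPA (log2 fold change 4.10 ± 0.28, adjusted p = 1.8e-06). Both rows are described as the largest RNA polymerase II subunit but named uncharacterized proteins. BQ9382_C3-3390, the row that carries the orthology entry of that subunit (RPB1), was at 358 and 447 CPM in X33-YPA, beside 369 and 446 CPM in GS115-YPA (log2 fold change -0.02 ± 0.16, adjusted p = 0.93). In BQ9382_C3-3415, also among the 15 lowest, the auxotroph duplicates disagreed, with 1.23 and 1.18 CPM in X33-YPA against 84.9 and 8.64 CPM in GS115-YPA (log2 fold change -5.27 ± 0.90, adjusted p = 0.00058). Without library A its log2 fold change was -2.88 and without B -6.13. Without A 5 zinc cluster factors fell, and without B 7 rose.

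**Figure D5:**
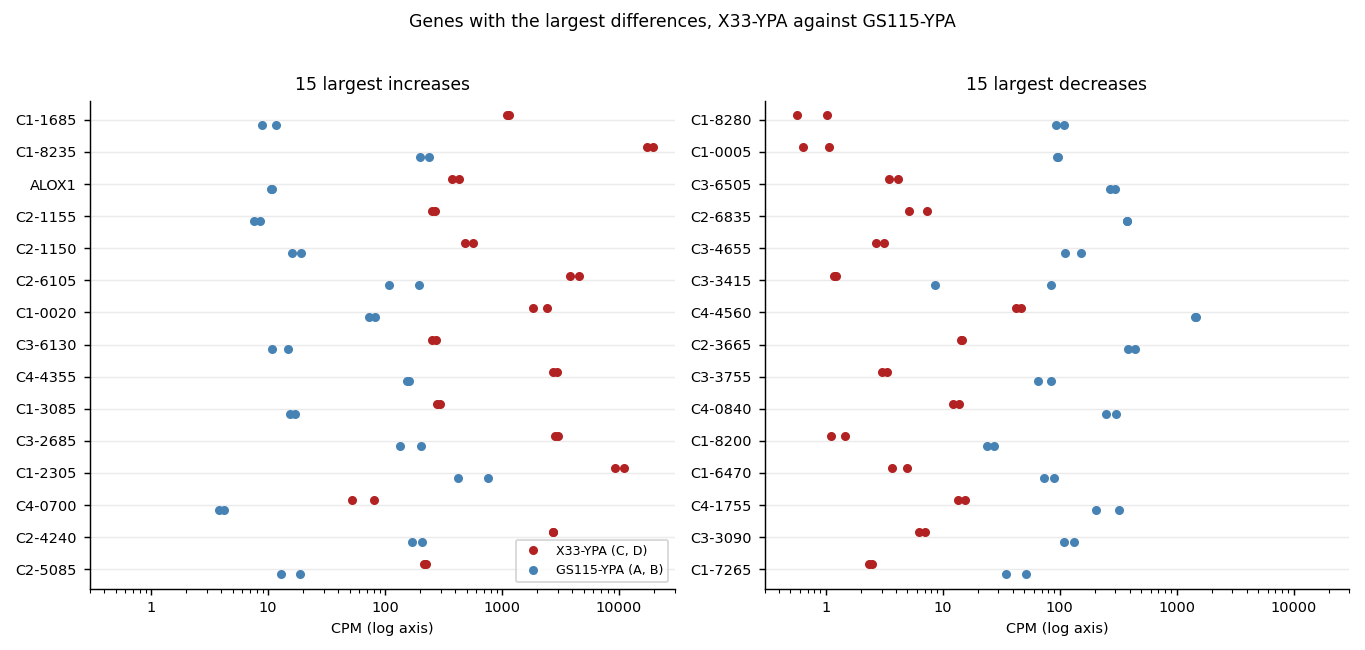
CPM on a log axis in each X33-YPA (red) and GS115-YPA (blue) library for the 15 genes of highest and the 15 of lowest fold change by the naming rule. The general amino acid permease BQ9382_C1-1685 stands at 1150.2 and 1113 CPM in X33-YPA, against 8.91 and 11.6 CPM in GS115-YPA.

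Non-coding rows (misc_RNA) had 52 of 160 up (32.5%) and 37 down (23.1%). Rows named only as predicted proteins had 108 up (29.8%) and 119 down (32.9%) of 362. Splicing factors had 20 up (23.5%) and 24 down (28.2%) of 85. Over all genes 33.4% rose and 32.8% fell, so that these shares were near or under the background. The spliceosome component ISY1 (BQ9382_C4-5230) was at 8.95 and 9.996 CPM in X33-YPA, against 113 and 76.5 CPM in GS115-YPA (log2 fold change -3.32 ± 0.20, adjusted p = 8.9e-07). Mitochondrial carriers and import genes had 23 up (38.3%) and 15 down (25%) of 60. Without library D, 13 splicing and 14 carrier and import genes rose. The succinate-fumarate carrier (BQ9382_C4-1470), which brings succinate of the glyoxylate cycle into mitochondria, was at 1324 and 1441 CPM in X33-YPA, against 649 and 623 CPM in GS115-YPA (log2 fold change 1.12 ± 0.14, adjusted p = 6.1e-05).

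Against GS115-YPAH5x, fewer genes passed the test in the same X33-YPA libraries. There 1075 genes rose (19.8%) and 1172 fell (21.6%), and 2 rose (0.0369%) and 40 fell (0.737%) past 2 log2 units, 0.774% in all. With library totals in place of TMM scaling, 2040 rose and 671 fell, 4 and 25 of them past 2 log2 units, and at an adjusted p under 0.01, 487 rose and 690 fell. The median of all genes was 0.03 with TMM scaling, 0.15 with the upper quartile and 0.29 with library totals, and the share of calls that were higher was 47.8, 61.3 and 75.2%. The total of 2247 became 934 without library F, 1149 without D and 1332 without E, and the 1075 higher became 690 without C. Both comparisons use libraries C and D, so that their values are set side by side without a test of the difference between them. ATP synthase had 11 of 14 genes up against the supplemented auxotroph with a median of 0.86, against a median of 2.75 in the comparison with GS115-YPA. Cytosolic ribosomal proteins had 69 of 80 up with a median of 0.70, against 1.21, and 30 of them rose without library F, 45 without D and 46 without E. The medians of arginine, lysine, branched-chain and histidine synthesis were -0.15, 0.06, -0.03 and -0.23 against GS115-YPAH5x, and with library totals 0.12, 0.33, 0.24 and 0.04, so that no direction is read from them. HIS4 was at 207 and 181 CPM in GS115-YPAH5x, and ornithine carbamoyltransferase (BQ9382_C3-3090) at 10.2 and 11.1 CPM, with a log2 fold change of -0.69 ± 0.16. Adhesins still had 6 of 9 genes down with a median of -1.10. The proteasome had 8 of 38 down, near the share of 21.6% over all genes, with a median of -0.19. Its values became 0 down and 0.08 with library totals, and 3 down with the upper quartile. Without library C or E 2 proteasome genes fell, and without D or F none did. ALOX1 was 1 of the 2 genes that rose past 2 log2 units, at 371 and 429.5 CPM in X33-YPA against 50.9 and 43.9 CPM in GS115-YPAH5x (log2 fold change 3.08 ± 0.16). The row after it, BQ9382_C4-0700, was also far higher in X33-YPA than in GS115-YPAH5x, and these neighbours may not be independent.

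In 6 classes the majority in one direction rested on the setting. Without library D, 26 of 59 cell wall genes, 25 of 52 replication genes and 24 of 53 glycosylation genes rose, and without library A or C 27 or 29 of the cell wall genes. The majority that fell was lost in chaperones without C, D, E or F (33 to 35 of 71), in nitrogen breakdown without A, C or E (12 or 13 of 27) and in sulfur amino acids without B, C, D, E or F (6 to 10 of 20). At an adjusted p under 0.01 the majority was lost in 5 of these classes, with 27 cell wall and 26 replication genes that rose and 31 chaperone, 12 nitrogen breakdown and 6 sulfur amino acid genes that fell. With library totals in place of TMM scaling, 35 chaperone, 13 nitrogen breakdown and 8 sulfur amino acid genes fell. In a fit of libraries A to D alone, 10 sulfur amino acid genes fell, and without the 10 most abundant rows 32 of 64 chaperone genes did. The counts say nothing of strand, since the strand setting of the counting is not given, and reads of overlapping or antisense neighbours cannot be told apart.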

How the data were processed

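Cells were grown for 24 h in YPA, or for GS115-YPAH5x in YPA with 650 µM histidine, RNA was extracted with RNeasy columns, ribosomal RNA was depleted with a kit made for bacteria, and libraries were prepared with NEBNext Ultra II reagents for Illumina sequencing. For counting, featureCounts 1.6.4 is listed by the submitters' processing notes, beside Bowtie2 as the aligner, fastp 0.19.6 and bcl2fastq 2.19.0.316 for the reads and DESeq2. No source used here gave the genome build, the strand setting or the Bowtie2 version. The authors deposited whole-number read counts per gene, not normalized, for all 6 libraries with gene annotation, and all 6 columns were used.

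Counts were fitted with edgeR 4.0.16 in R 4.3.3 (quasi-likelihood, legacy method, TMM scaling, filterByExpr) in 1 fit of all 6 libraries, so that the groups share 1 estimate of the spread, with Benjamini-Hochberg adjustment over 5426 genes. Standard errors were the absolute log2 fold change divided by the square root of F. The fit was tested on simulated data in which few genes changed, as many higher as lower. In the data 66.2% of genes passed, so that the simulation does not check the scaling used here. With 2 libraries against 2, an exact permutation test of a single gene cannot go below p = 0.333, so none was used. DESeq2 1.42.0, limma-voom (limma 3.58.1), other scalings and filters, a stricter threshold and each library left out in turn were alternatives.

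Genes were named by rule: the histidine genes, the 15 highest and 15 lowest genes by fold change among those called, without overlap between strains and with a group mean of at least 10 CPM, the 10 most abundant genes, and in each class up to 4 members in each direction and the most abundant member. This gave 378 genes. Members, classes and lists were chosen with earlier results of these data known, and the subunit groups within classes after their values were seen. Gene lengths are not in the table, so that levels were not compared between genes except as shares of counts. A further gene table given for name matching belongs to the assembly of another strain and was not used here.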

Additional observations from a re-analysis of the deposited data

How the results depend on the processing

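The comparison with GS115-YPA was little affected by the processing. Its 3590 calls (1812 higher, 1778 lower in X33-YPA) became 2895 to 3594 under other tools, scalings, filters and thresholds and 3046 to 3605 when 1 library was left out, and the share of calls that were higher stayed between 48.4 and 53.9% (50.5% as reported). The 138 genes higher past 2 log2 units became 133 to 157 and, without 1 library, 132 to 149, and the 231 lower became 214 to 243 and 225 to 284. The median of all genes lay between -0.03 and 0.08. Classes with a majority in one direction numbered 21 to 27 (26 as reported), and 21 to 25 without 1 library. Of 7172 values of the 378 named genes under the alternatives, 7083 kept direction and side of the threshold, 80 lost the call, in 24 genes, and 9 gained it, and none reversed. Of these genes 365 were called, and most were named because they were called, did not overlap between strains and changed most. Their stability therefore follows in large part from the naming rule and says little of other genes.

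The comparison with GS115-YPAH5x depended on the processing. Its 2247 calls (1075 higher, 1172 lower, and 2 higher and 40 lower past 2 log2 units) changed under 2 settings by more than 1.5 times. With library totals in place of TMM scaling, 2040 genes were higher and 671 lower, 4 and 25 of them past 2 log2 units. At an adjusted p under 0.01, 1177 genes passed, 487 higher and 690 lower. Leaving out 1 library gave 934 to 2788 calls, 323 to 1394 higher and 611 to 1397 lower, with 2 to 5 higher and 32 to 67 lower past 2 log2 units; the lowest totals were 934 without F, 1149 without D and 1332 without E, 690 genes were higher without C, and 67 fell past 2 log2 units without C and 5 rose past it without E. The cause was not tested. Where a group was left with 1 library, that library was assumed to vary like the others. No paired analysis was possible because the labels give the libraries letters A to F and no replicate numbers shared between groups.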

Other observations

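The 3 rows that follow, annotated to vitamin B6, are in none of the classes and were chosen because they fell, so that they say nothing of other vitamin B6 genes. SNZ3, which makes the pyridoxal phosphate used by aminotransferases, was counted at 109 and 117 CPM in X33-YPA, against 727 and 884 CPM in GS115-YPA (log2 fold change -2.83 ± 0.16, adjusted p = 6.4e-07). Its neighbour and partner SNO1 was at 6.63 and 8.56 CPM in X33-YPA, against 49.1 and 48.0 CPM in GS115-YPA (log2 fold change -2.67 ± 0.19, adjusted p = 2.4e-06). A row annotated as the plasma membrane transporter of pyridoxine, BQ9382_C1-0815, was at 8.23 and 6.56 CPM in X33-YPA, against 48.7 and 58.7 CPM in GS115-YPA (log2 fold change -2.86 ± 0.18, adjusted p = 1.3e-06).

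Neighbouring rows sometimes changed together past 2 log2 units. The longest runs had 4 rows, all lower in X33-YPA, and 1 of them, BQ9382_C3-4390 to BQ9382_C3-4405, consists of rows described as NADPH oxidoreductases with flavin mononucleotide. The first, BQ9382_C3-4390, was at 9.88 and 7.17 CPM in X33-YPA, against 129 and 100.4 CPM in GS115-YPA (log2 fold change -3.76 ± 0.24, adjusted p = 1.3e-06), and the last, BQ9382_C3-4405, at 7.28 and 7.83 CPM in X33-YPA, against 59.0 and 46.6 CPM in GS115-YPA (log2 fold change -2.80 ± 0.17, adjusted p = 8.2e-07). The rows carry the same description, so that reads may be shared between them. BQ9382_C4-0700, the row after ALOX1, was at 52.6 and 80.4 CPM in X33-YPA, against 3.80 and 4.19 CPM in GS115-YPA (log2 fold change 4.05 ± 0.22, adjusted p = 5.9e-07), and at 2.71 and 2.81 CPM in GS115-YPAH5x.

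Calls were spread over the 4 chromosomes, with 30.7 to 34.8% of genes higher and 31.4 to 33.6% lower in X33-YPA. The first and last 50 rows of each chromosome went both ways, with medians of -0.63 (9 rose, 28 fell, first rows of chromosome 1) to 0.32 (22 rose, 10 fell, first rows of chromosome 3). Falls outnumbered rises at 5 of these 8 ends, and rises outnumbered falls at the start of chromosomes 3 and 4 and the end of chromosome 2.

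Among the 378 named genes, the duplicates of GS115-YPA disagreed most in adjacent genes. Genes outside the named ones were not ranked in this way. BQ9382_C3-3410, annotated as the beta subunit of eIF2B, was at 26.5 and 23.8 CPM in X33-YPA, against 199 and 36.5 CPM in GS115-YPA (log2 fold change -2.23 ± 0.57, adjusted p = 0.0063). Its log2 fold change was -0.58 without library A and -2.98 without B. Its neighbour BQ9382_C3-3415 had 84.9 and 8.64 CPM in the same 2 libraries.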
